A study of Mus musculus with 6 samples.

Results

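The genes described here are the importins, the exportins, the genes of the Ran cycle and the Nxf1–Nxt1 pair of mRNA export. They were taken as a named list of 31 mouse genes, matched by symbol to the Ensembl identifiers of the deposited gene table. All 31 were found among its 55471 genes, and all 31 passed the filter on low counts that left 15454 genes for testing. Polyadenylated RNA was sequenced from 10T1/2 cells, an untreated mouse embryonic fibroblast line grown in serum-containing medium. The 3 libraries labelled Ranbp2 KO came from 10T1/2 cells edited with CRISPR/Cas9 in the same study, and the 3 WT libraries came from 10T1/2 cells without that edit. Whether the edited cells were 1 clone or a mixture is not given in the labels. Replicates are called biological, with no account of how their cultures were kept apart, and p-values below refer to the variation among these 6 libraries.

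Cargo larger than the pore's passive limit crosses nuclear pores bound to transport receptors. Importins bind cargo in the cytoplasm and release it in the nucleus when they meet Ran loaded with GTP, whereas exportins bind cargo together with that form of Ran and release it once the GTP is hydrolysed in the cytoplasm. The gradient is kept by Rcc1, the nucleotide exchange factor on chromatin, and by Rangap1, the GTPase activator, which in mammals is bound to Ranbp2 on the cytoplasmic filaments of the pore.

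The libraries held between 32072817 and 46321967 expected counts each. Ranbp2, the gene named in the label (ENSMUSG00000003226, GRCm38 chromosome 10, 58446920 to 58494356), had 294, 289 and 293 CPM (counts scaled to a common library size) in the KO-labelled libraries, against 219.8, 250.1 and 249 CPM in the WT libraries. Its mRNA was thus not lower under the KO label: the log2 difference was 0.28 (SE 0.07, adjusted p = 0.0120, edgeR's quasi-likelihood test with Benjamini-Hochberg adjustment over all genes tested), and an exact two-sided permutation test of 3 against 3 values gave p = 0.1, the smallest it allows. The table holds 1 count per gene, so reads across the edited site could not be examined, and every direction below is by label. Of 10 fibroblast markers all were measured, with summed levels of 26820 to 33750 CPM in KO-labelled and 21340 to 24760 CPM in WT libraries. The 4 higher were Fn1, Dcn, Col3a1 and Pdgfra, and the 3 lower were Thy1, Col1a1 and Pdgfrb. Fn1 averaged 14521 ± 2738 CPM in KO-labelled and 5864 ± 269 CPM in WT libraries (SD, n = 3 each). Dcn averaged 19.5 ± 2.11 CPM in KO-labelled and 4.94 ± 0.845 CPM in WT libraries. Thy1, a surface glycoprotein of many fibroblasts, averaged 0.534 ± 0.216 CPM in KO-labelled and 58.3 ± 2.45 CPM in WT libraries (SD, n = 3 each). Of 6 epithelial markers only Cdh1, which encodes E-cadherin, passed the filter (summed level 6.08 to 9.07 CPM in KO-labelled against 1.88 to 2.56 CPM in WT), with Cldn4 listed at 0 in all 6 libraries. Blood cell markers summed to 1.5 to 2.32 CPM in KO-labelled and 1.62 to 2.31 CPM in WT libraries with Adgre1 at 0, endothelial markers to 20.9 to 24.8 CPM in KO-labelled against 35.3 to 39.5 CPM in WT, nearly all of it Tek, and neuronal markers to 259 to 280.0 CPM in KO-labelled against 168.5 to 183.7 CPM in WT, nearly all of it Map2. The 20 proliferation genes summed to 4275 to 4722 CPM in KO-labelled and 3774 to 3793 CPM in WT libraries, with 13 higher and 1 lower. At an adjusted p below 0.05 in edgeR's test, 70.0% of these were called, beside 38.9% of all genes tested. Of the proliferation genes 65.0% were higher, beside 17.6% of all genes tested. The share called among the 10 fibroblast markers was also 70.0%, but in both directions. The part of these differences in the results below was not tested.

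Most transport genes differed little between the groups. Of the 31 genes, 6 were higher, 3 were lower and 22 were not called at an adjusted p below 0.05 in edgeR's quasi-likelihood test. That is 29.0% called, whereas 38.9% of all genes tested were called (17.6% higher and 21.3% lower). The differences were also small: the median size of the log2 difference, sign ignored, was 0.13 over the 31 genes and 0.28 over all genes tested. Kpna2 and Ipo13 were the only members with a log2 difference larger than 0.5, sign ignored, 6.45% of the list beside 28.0% of all genes tested. Of these, Kpna2 was not called, and its value of -0.92 became 0.01 when counts of near-identical copies were added. Values of the KO-labelled and WT libraries did not overlap for 11 of the 31 (35.5%), beside 51.4% of all genes tested. The signed median was 0.06 (all genes tested 0.01), with 21 of 31 values positive (67.7%, beside 51.2% of all genes tested). The number called was 5 without Ranbp2 KO replicate 2, without Ranbp2 KO replicate 3 or without WT replicate 1, and 3 without WT replicate 2. In whole cultures, fewer cells that express a gene and less of its RNA per cell cannot be told apart.

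**Figure D1:**
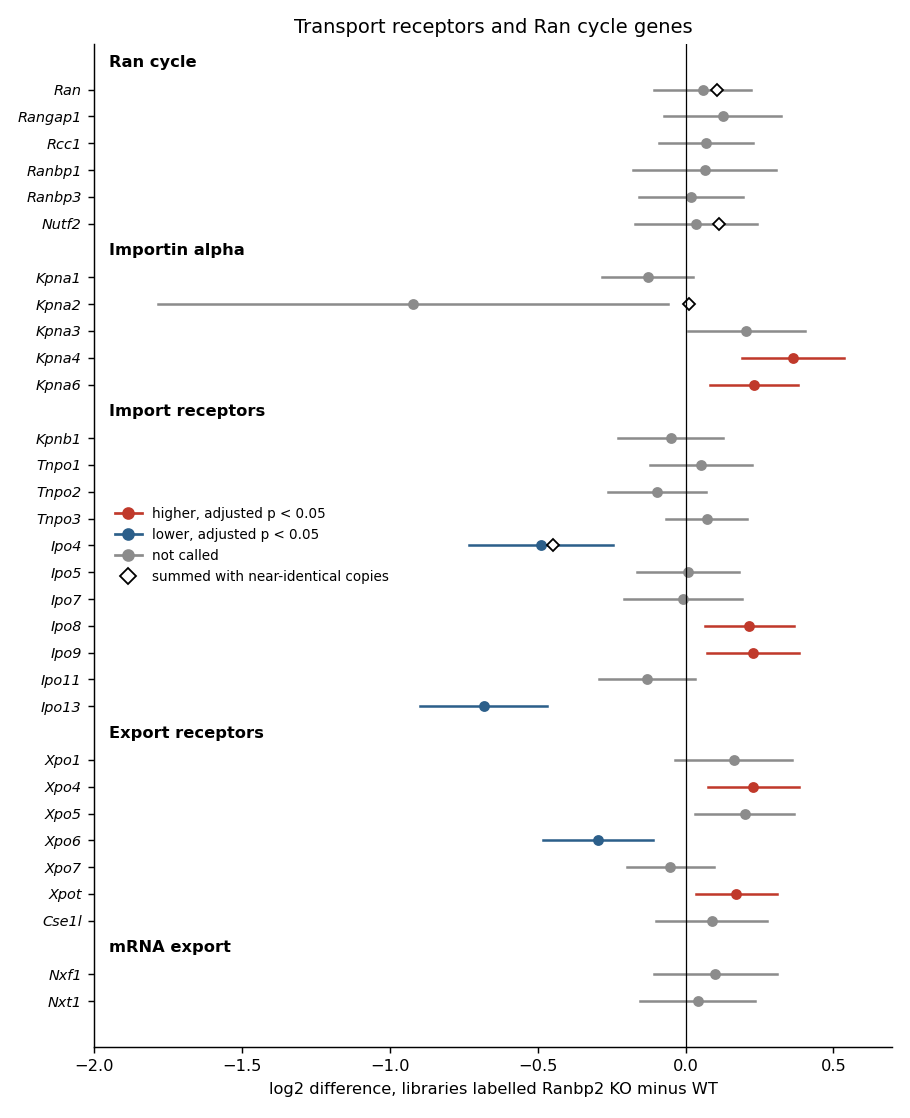
Log2 difference (libraries labelled Ranbp2 KO minus WT, 3 libraries each) of the 31 genes by role, with circles for the deposited counts, lines for 95% intervals and diamonds for counts summed with near-identical copies. The Ran cycle genes lie between 0.02 and 0.13, the called members lie between -0.68 and 0.36, and Kpna2 moves to 0.01 once its copies are included.

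None of the 6 Ran cycle genes was called in edgeR's test, and none had an unadjusted p below 0.05. Over all genes tested, 38.9% were called and 7420 of 15454 had an unadjusted p below 0.05. The log2 differences of the 6 genes ran from 0.02 to 0.13. Ran, the GTPase itself, had 540.2, 596 and 541 CPM in the KO-labelled libraries, against 541, 539.7 and 530.1 CPM in the WT libraries. Rangap1, its GTPase activator and a binding partner of Ranbp2, had 171, 204 and 185 CPM in the KO-labelled libraries, against 187, 169 and 158 CPM in WT. Rcc1, the exchange factor, had 55.7, 53.6 and 54.9 CPM in the KO-labelled libraries, against 54.9, 52.6 and 49.0 CPM in WT. In all 3 genes the ranges of the groups overlapped. Ranbp1, which helps GTP hydrolysis on Ran leaving the nucleus, had 238, 252 and 231 CPM in the KO-labelled libraries, against 199, 219 and 272 CPM in WT, where WT replicate 3 was the highest of all 6 libraries. Ranbp3, a cofactor of the exportin Xpo1, had 76.7, 78.8 and 81.5 CPM in the KO-labelled libraries, against 85.7, 76.5 and 71.7 CPM in WT, and the KO-labelled libraries lay inside the WT range. Nutf2, which carries GDP-bound Ran back into the nucleus, had 63.4, 54.3 and 58.2 CPM in the KO-labelled libraries, against 56.1, 52.2 and 63.4 CPM in WT, again with overlap. The intervals show what size of difference these libraries leave room for. The 95% interval of Ran was -0.11 to 0.22, that of Rcc1 was -0.09 to 0.23 and that of Rangap1 was -0.07 to 0.32 on the log2 scale. For Ranbp1, the least even of the group, it was -0.18 to 0.31. A difference that misses the threshold does not show equal levels, and a log2 difference of 0.3 in Rangap1 or Ranbp1 lies within these limits.

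Per length of exon, Ran was the most abundant of the 31 genes, at 211 CPM per kb in KO-labelled and 203 CPM per kb in WT libraries, and Ranbp1 the third as deposited, at 144 CPM per kb in KO-labelled and 138 CPM per kb in WT libraries. The exchange factor and the activator were far lower, with Rangap1 at 38.4 CPM per kb in KO-labelled and 35.2 CPM per kb in WT libraries and Rcc1 at 14.2 CPM per kb in KO-labelled and 13.6 CPM per kb in WT libraries. Summed over the 6 genes, the length-scaled level was 448 ± 19.2 CPM per kb in KO-labelled and 429 ± 18.4 CPM per kb in WT libraries (SD, n = 3 each). Ran made up 47.1% of that sum in KO-labelled and 47.4% in WT libraries.

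Ran and Nutf2 have near-identical copies at other loci of the table, and which locus the reads came from was not tested. Gm13461, a processed pseudogene on chromosome 2 (41987473 to 41988829), matches 98.92% of the 651 aligned bases of the Ran coding sequence, and Ran held 83.2% to 86.5% of their pooled CPM in KO-labelled and 86.5% to 88.7% in WT libraries. Nutf2-ps1 on chromosome 19 (53588168 to 53589068) is identical to all 384 coding bases of Nutf2, and Nutf2 held 44.8% to 50.7% of the pooled CPM in KO-labelled and 47.4% to 52.5% in WT libraries. Summed with these copies, neither gene was called: the log2 difference was 0.11 for Ran (adjusted p = 0.267) and 0.11 for Nutf2 (adjusted p = 0.218, both by edgeR's quasi-likelihood test).

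RefSeq promoter windows, which run from 250 bases before to 50 bases after each annotated start, were found for 24 of the 31 genes, 5 of them in the Ran cycle. These 24 genes held 31 windows, because some have more than 1 start. No window was found for Ranbp3, Kpna1, Kpna3, Kpna6, Xpo4, Xpo7 and Cse1l, so these were not searched. GCGCATGC, from the motif of NRF1, a factor of many housekeeping promoters, was searched on both strands, and a match on the other strand reads GCATGCGC. It was found in 4 of 31 member windows (12.9%), those of Ran, Ranbp1, Rcc1 and Xpo5, beside 2.7% of all 32851 windows and 5.0% of those of genes tested. A stretch of the windows of Ran and Ranbp1 is shown because 3 of the 4 members with a match are Ran cycle genes, none of which was called. The stretches are from GRCm38.p6, 5′ to 3′ on the strand of the gene, with the matches in capitals. That of Ran spans chr5:129019936-129019975 on the plus strand, 220 to 181 bases before the start, and holds overlapping matches on both strands. That of Ranbp1 spans chr16:18248811-18248848 on the minus strand, 154 to 117 bases before the start.
Ran: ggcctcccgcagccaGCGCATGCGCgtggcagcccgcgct
Ranbp1: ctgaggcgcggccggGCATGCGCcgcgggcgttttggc
A match is a run of letters, not evidence of binding.

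Importin alpha proteins are the adaptors that bind classical nuclear localisation signals and ride on Kpnb1. Of the 5 importin alpha genes, Kpna4 and Kpna6 were higher and Kpna1, Kpna2 and Kpna3 were not called. The 40.0% called is near the 38.9% of all genes tested. Kpna4 (ENSMUSG00000027782, chromosome 3, 69067149 to 69127113) had 187, 191 and 184 CPM in the KO-labelled libraries, against 132, 148 and 157 CPM in WT. All KO-labelled libraries lay above all WT libraries, and the 3 KO-labelled values differed less among themselves than the 3 WT values. The log2 difference was 0.36 (SE 0.08, adjusted p = 0.0046, edgeR's quasi-likelihood test), a 1.29-fold higher level, the largest rise among the 31 genes. It was called in all 14 other settings tried, 6 of which left out 1 library each, with log2 differences of 0.29 to 0.42.

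Kpna6 (ENSMUSG00000003731, chromosome 4, 129643980 to 129672767) had 167, 170.2 and 185 CPM in the KO-labelled libraries, against 152, 147 and 146 CPM in WT. The groups did not overlap, and the log2 difference was 0.23 (SE 0.07, adjusted p = 0.0207, edgeR's quasi-likelihood test). It was called in 10 of 14 other settings. This call was lost without Ranbp2 KO replicate 3 (log2 0.18, adjusted p = 0.108), without WT replicate 2 (0.22, adjusted p = 0.101) and without a filter on low counts (0.20, adjusted p = 0.0953, same edgeR test). Kpna3 also had groups that did not overlap, at 164, 146 and 150.5 CPM in KO-labelled and 117, 139.8 and 143 CPM in WT libraries, but its log2 difference of 0.21 gave an adjusted p of 0.0945 in edgeR's test. Kpna1 had a value of -0.13 (adjusted p = 0.168).

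The promoter window of Kpna4 is shown because it belongs to the member with the largest rise. CCAAT, the core of the NF-Y motif, was found on either strand in 14 of 31 member windows (45.2%), beside 37.4% of all windows. The Kpna4 window holds it once on each strand. The stretch spans chr3:69127113-69127176 on the minus strand of GRCm38.p6, 84 to 21 bases before the RefSeq start, with the matches in capitals.
Kpna4: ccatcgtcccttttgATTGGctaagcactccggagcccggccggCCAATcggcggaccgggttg
Of the 9 members called, 7 have a window, and Kpna6 and Xpo4 have none. Among those 7, Ipo9 (higher) and Xpo6 (lower) also hold CCAAT, so the letters were found on both sides of the change.

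Kpna2 carries the lowest length-scaled level of the 31 genes in the KO-labelled libraries as deposited, and that value does not measure Kpna2 alone. The table gave it 4.20, 7.99 and 12.3 CPM in the KO-labelled libraries, against 16.7, 21.1 and 8.23 CPM in WT. The groups overlapped, and the log2 difference of -0.92 (SE 0.39) was not called (adjusted p = 0.0857, edgeR's quasi-likelihood test). It would have been called lower without Ranbp2 KO replicate 3 (-1.34, adjusted p = 0.028) or without WT replicate 3 (-1.22, adjusted p = 0.0137, same edgeR test). With all genes kept instead of filtered it was also called lower (-0.96, adjusted p = 1.24e-14, same edgeR test). That setting hardly moved the log2 difference, and the values scattered widely within each group. So small a p-value does not reflect that scatter, and why it arose was not tested. Gm10184, a gene annotated as protein-coding on chromosome 17 (89908462 to 89910449), had 507, 600.2 and 515 CPM in the KO-labelled libraries, against 515, 527 and 528 CPM in WT. Its sequence differs from the 1590 coding bases of Kpna2 at 2 positions, A696G and C741T, where the base of Kpna2 comes first, the base of the copy last, and positions count from 1 at the first coding base. The processed pseudogene Gm10259 on chromosome 3 (25211016 to 25212605) differs at 3, C90T, A696G and C741T, and had 27.9, 0 and 12.8 CPM in the KO-labelled libraries, against 0, 14.0 and 43.1 CPM in WT.

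The stretch of the coding sequence that holds both shared differences, bases 681 to 760, shows how little separates these genes. The differing bases are in capitals. Kpna2 lies on chromosome 11 and all 3 genes lie on the minus strand.
Kpna2: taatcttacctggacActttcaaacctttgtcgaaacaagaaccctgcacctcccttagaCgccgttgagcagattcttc
Gm10184: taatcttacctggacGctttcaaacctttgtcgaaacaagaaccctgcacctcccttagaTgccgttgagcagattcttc
Gm10259: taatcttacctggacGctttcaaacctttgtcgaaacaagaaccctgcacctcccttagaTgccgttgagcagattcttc
Outside these positions, and base 90 in Gm10259, a read within the coding sequence cannot be told apart between the 3 genes.

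Kpna2 held 0.78%, 1.31% and 2.28% of the CPM pooled with its copies in the KO-labelled libraries, against 3.14%, 3.76% and 1.42% in WT. The share thus differed several-fold between libraries of the same group. Summed with its copies, the level was 539.2, 608 and 540.0 CPM in the KO-labelled libraries, against 532, 562 and 579 CPM in WT. On that scale the groups overlapped, with a log2 difference of 0.01 (95% interval -0.17 to 0.19, adjusted p = 0.922, edgeR's quasi-likelihood test). The order of the importin alpha genes turned on this sum. As deposited, Kpna2 made up 2.93% of the length-scaled importin alpha level in KO-labelled and 6.16% in WT libraries, and Kpna3 led with 37.0% and 35.6%. With the copies counted as Kpna2, it made up 67.6% in KO-labelled and 70.5% in WT libraries and came second to Ran among the 31 genes. Which of the loci the reads came from was not tested.

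**Figure D2:**
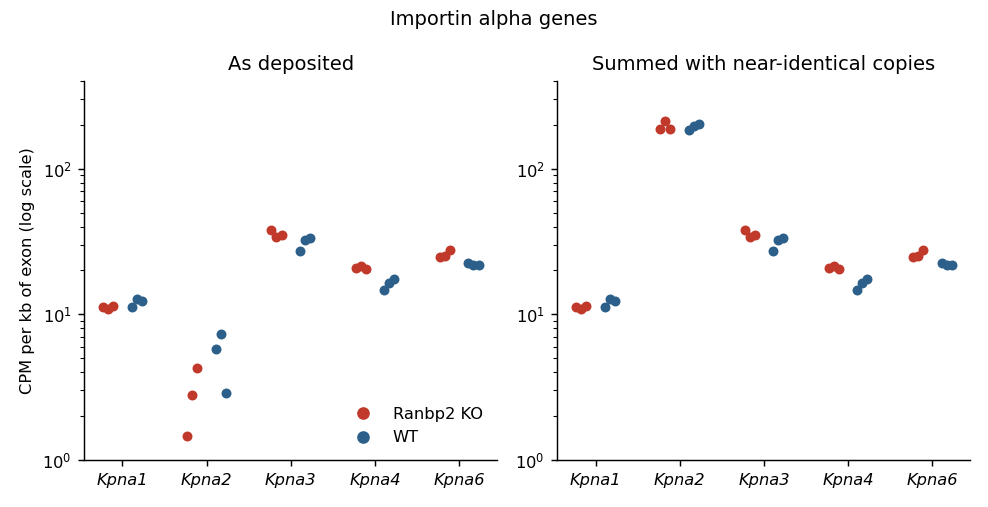
Level of the 5 importin alpha genes in each library (CPM per kb of exon, log scale, libraries labelled Ranbp2 KO in red and WT in blue), from the deposited counts and after adding the counts of near-identical copies. Kpna2 moves from the bottom, 2.84 CPM per kb in KO-labelled and 5.34 CPM per kb in WT libraries on average, to the top, 196 and 194 CPM per kb, while Kpna4 and Kpna6 keep their values.

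Among the 11 import receptors of the importin beta family, Ipo13 and Ipo4 were lower, Ipo9 and Ipo8 were higher, and 7 were not called. The 36.4% called is near the 38.9% of all genes tested. Ipo13 imports the Magoh–Y14 pair and exports eIF1A. At its locus (ENSMUSG00000033365, chromosome 4, 117894486 to 117914999) the level was 58.7, 61.1 and 63.1 CPM in the KO-labelled libraries, against 110.5, 98.7 and 84.6 CPM in WT. Every KO-labelled library lay below every WT library, and the WT values were the more widely spread. The log2 difference of -0.68 (SE 0.10, adjusted p = 0.000411, edgeR's quasi-likelihood test) corresponds to 0.623 times the WT level, and it had the smallest adjusted p of the list. It was called in all 14 other settings, from -0.78 to -0.59.

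Ipo4, an importer of histones and ribosomal proteins (ENSMUSG00000002319, chromosome 14, 55625400 to 55635957), had 72.0, 82.7 and 80.3 CPM in the KO-labelled libraries, against 128, 107 and 94.5 CPM in WT. The groups did not overlap, and the log2 difference was -0.49 (SE 0.11, adjusted p = 0.00587, edgeR's quasi-likelihood test). It too was called in all 14 other settings, from -0.59 to -0.37. The annotated gene Gm49378 shares 2583 exon bases with Ipo4 on the same strand, so reads there cannot be told apart. Ipo4 held 73.7% to 76.6% of the CPM of both in KO-labelled and 73.5% to 80.5% in WT libraries, and their sum gave a log2 difference of -0.45 (SE 0.09, adjusted p = 0.00324, same edgeR test).

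Ipo9, which carries histone H2A–H2B dimers and actin (ENSMUSG00000041879, chromosome 1, 135382312 to 135430499), had 297, 320.3 and 318 CPM in the KO-labelled libraries, against 279, 262 and 257 CPM in WT. Ipo8, an importer of Smad proteins and SRP19 (ENSMUSG00000040029, chromosome 6, 148770683 to 148831467), had 70.3, 71.5 and 75.4 CPM in the KO-labelled libraries, against 59.8, 64.8 and 62.4 CPM in WT. Neither gene had overlapping groups. The log2 difference was 0.23 (SE 0.07, adjusted p = 0.0267) for Ipo9 and 0.22 (SE 0.07, adjusted p = 0.0295, both by edgeR's quasi-likelihood test) for Ipo8, and each was called in 8 of 14 other settings. The call on Ipo9 was lost without Ranbp2 KO replicate 2 or 3 or without WT replicate 2 or 3 (edgeR adjusted p 0.0728 to 0.116), and the call on Ipo8 without Ranbp2 KO replicate 2 or 3 or without WT replicate 1 or 2 (edgeR adjusted p 0.0739 to 0.144). Without a filter on low counts neither was called (edgeR adjusted p 0.115 for Ipo9 and 0.139 for Ipo8).

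The main carrier of classical import, Kpnb1, which takes the importin alpha adaptors through the pore, was not called, at 898, 1014 and 966 CPM in KO-labelled and 989, 984 and 1006 CPM in WT libraries (log2 -0.05, 95% interval -0.23 to 0.13). It is named for its level, after its values were seen: per length it was the second gene of the list as deposited, at 146 CPM per kb in KO-labelled and 151 CPM per kb in WT libraries. The other receptors not called had log2 differences of -0.13 for Ipo11, -0.10 for Tnpo2 and 0.07 for Tnpo3, with adjusted p of 0.188, 0.337 and 0.390 in edgeR's test. Tnpo1, the transportin of hnRNP A1, had 0.05, and Ipo5 and Ipo7, carriers of ribosomal proteins, had 0.01 and -0.01. Summed over the 11 receptors, the length-scaled level was 381 ± 16.4 CPM per kb in KO-labelled and 396 ± 1.72 CPM per kb in WT libraries (SD, n = 3 each). Within that sum Ipo13 made up 3.81% in KO-labelled and 5.87% in WT libraries, whereas Ipo9 made up 9.94% in KO-labelled and 8.15% in WT libraries.

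**Figure D3:**
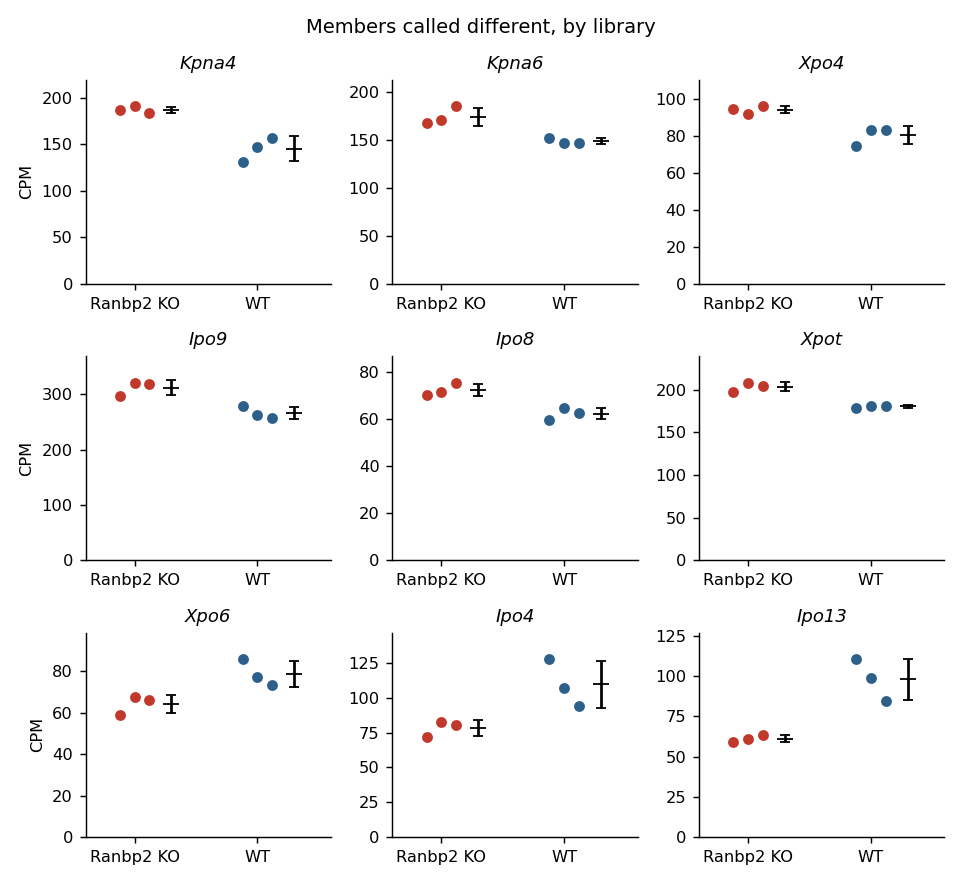
CPM of the 9 called members in each library (points), with the mean and SD of the 3 libraries beside them, libraries labelled Ranbp2 KO left of WT and each axis starting at 0. The groups do not overlap in any panel, and the fold sizes are small apart from Ipo13 and Ipo4; Ipo13 averages 61.0 CPM in KO-labelled and 97.9 CPM in WT libraries.

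Of the 7 export receptors, Xpo4 and Xpot were higher, Xpo6 was lower, and Xpo1, Xpo5, Xpo7 and Cse1l were not called. The 42.9% called is near the 38.9% of all genes tested. Xpo6 exports actin bound to profilin. It had (ENSMUSG00000000131, chromosome 7, 126101715 to 126200501) 59.1, 67.4 and 66.2 CPM in the KO-labelled libraries, against 85.8, 77.2 and 73.5 CPM in WT, and the groups did not overlap. The log2 difference was -0.30 (SE 0.08, adjusted p = 0.0191, edgeR's quasi-likelihood test). The call was lost without Ranbp2 KO replicate 1 (-0.24, adjusted p = 0.0613), without WT replicate 1 (-0.23, adjusted p = 0.0538) or without WT replicate 2 (-0.31, adjusted p = 0.056, same edgeR test). In all 3 lower members of the list, Ipo13, Ipo4 and Xpo6, WT replicate 1 was the highest library and Ranbp2 KO replicate 1 the lowest.

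Xpo4, an exporter of eIF5A and Smad3 (ENSMUSG00000021952, chromosome 14, 57577521 to 57665430), had 94.7, 92.2 and 96.2 CPM in the KO-labelled libraries, against 74.8, 83.1 and 83.6 CPM in WT. Xpot, the tRNA exporter (ENSMUSG00000034667, chromosome 10, 121587380 to 121626332), had 198, 208 and 205 CPM in the KO-labelled libraries, against 179, 181 and 182 CPM in WT. For both genes all KO-labelled libraries were above all WT libraries. The log2 difference was 0.23 (SE 0.07, adjusted p = 0.0248) for Xpo4 and 0.17 (SE 0.06, adjusted p = 0.0490, both by edgeR's quasi-likelihood test) for Xpot, whose value lies at the threshold. Without any 1 library other than WT replicate 3, Xpo4 was no longer called (edgeR adjusted p 0.0535 to 0.103), and without any 1 library other than Ranbp2 KO replicate 1, Xpot was no longer called (edgeR adjusted p 0.0862 to 0.161). Without a filter on low counts neither was called (edgeR adjusted p 0.0981 for Xpo4 and 0.312 for Xpot), and in limma-voom Xpot had an adjusted p of 0.0509.

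The window of Xpot is shown because it holds CACGTG, the E-box bound by Myc and related factors, which was found in 5 of 31 member windows (16.1%), beside 7.2% of all windows and 9.6% of those of genes tested. The stretch spans chr10:121626543-121626578 on the minus strand of GRCm38.p6, 246 to 211 bases before the start, with the match in capitals.
Xpot: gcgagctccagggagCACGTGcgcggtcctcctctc
The other windows with CACGTG belong to Ipo4, which was lower, and to Ran, Ipo7 and Tnpo2, which were not called. Of the other motifs searched on both strands, TTTCCCGC was found only in the window of Ranbp1 (3.2% of member windows, 1.1% of all), and TTTGGCGC and TGACGTCA in none (0.5% and 1.8% of all windows). Each motif found in a called member was also found in members that were not called.

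Xpo5, which exports precursor microRNAs, came closest to the threshold among the members not called. It had 153, 179 and 175 CPM in the KO-labelled libraries, against 151, 145 and 145 CPM in WT, without overlap, and a log2 difference of 0.20 (adjusted p = 0.0589, edgeR's quasi-likelihood test). It was called in 4 of 14 other settings. These were without Ranbp2 KO replicate 1 (0.27, adjusted p = 0.0111, same edgeR test), with library size alone (0.22, adjusted p = 0.0264, same edgeR test), with a filter of 1 CPM in all libraries of a group (0.22, adjusted p = 0.0302, same edgeR test) and in DESeq2's Wald test (0.20, adjusted p = 0.0401). Xpo1, the exporter of proteins with leucine-rich signals, had 332, 292 and 294 CPM in KO-labelled and 247, 274 and 298 CPM in WT libraries, and its log2 difference of 0.16 (95% interval -0.03 to 0.36) was not called. Cse1l, which returns importin alpha to the cytoplasm, had 0.09 and Xpo7 had -0.05. The length-scaled sum of the 7 export receptors was 157 ± 3.15 CPM per kb in KO-labelled and 143 ± 6.02 CPM per kb in WT libraries (SD, n = 3 each). Bulk mRNA leaves the nucleus mainly on the heterodimer of Nxf1 and Nxt1. Nxf1 had a log2 difference of 0.10 (95% interval -0.11 to 0.31) and Nxt1 one of 0.04 (-0.15 to 0.24), and neither was called.

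In these libraries the median log2 difference varied between the autosomes and X, from -0.28 on chromosome 13 to 0.29 on chromosome 1, so each member was set beside the other tested genes of its chromosome and beside those within 5 Mb. Apart from Kpna2, Ipo13 stood furthest from its surroundings: its value minus the chromosome 4 median of 0.12 was -0.80, and its 89 neighbours had a median of 0.23. The same distance was -0.48 for Ipo4 and -0.24 for Xpo6, whose neighbours had medians of -0.09 and -0.11. Kpna4 was 0.36 above a chromosome 3 median of 0.01 (neighbours 0.08), Xpo4 was 0.24 above a chromosome 14 median of -0.01 (neighbours -0.09), and Xpot was 0.25 above a chromosome 10 median of -0.08 (neighbours -0.03). The remaining higher members lay closer to their surroundings. Kpna6 was 0.11 above chromosome 4 (neighbours 0.11), and Ipo8 was 0.05 above chromosome 6 (median 0.17, neighbours 0.21). Ipo9, at 0.23, lay below the chromosome 1 median of 0.29 but above its neighbours' median of 0.17, and Xpo5, at 0.20, lay below the chromosome 17 median of 0.27 but above its neighbours' 0.14. Members that were not called could lie as far off: Tnpo1 was 0.34 above chromosome 13 (neighbours -0.34), Nxf1 was 0.29 above chromosome 19 (neighbours -0.26), and Ranbp3 had a distance of -0.26 from chromosome 17 (neighbours 0.29). These distances are descriptions without a test, and the part of the chromosome in each member's difference was not tested.

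**Figure D4:**
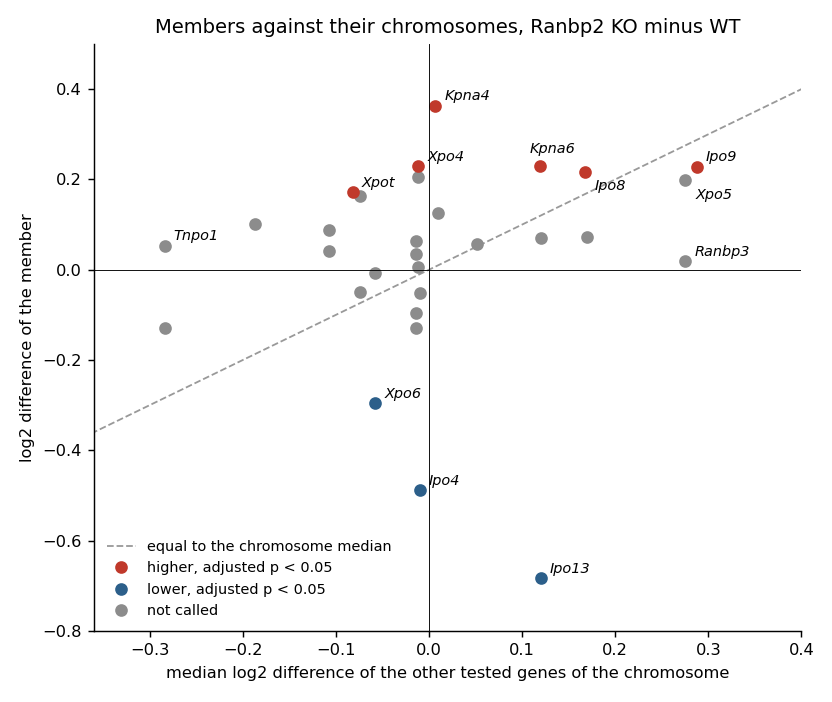
Log2 difference of each member (libraries labelled Ranbp2 KO minus WT) against the median log2 difference of the other tested genes of its chromosome, with the dashed line where both are equal. Among called members Ipo13, Ipo4 and Kpna4 lie furthest from the line and Ipo9 and Ipo8 closest, and Tnpo1, not called, lies 0.34 above it; Kpna2, at -0.92, is not drawn.

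Relatives and partners of these genes were examined as further lists. Of 11 further transport receptors and Ran-binding genes, 7 were measured, with 2 higher, 1 lower and 4 not called. The 42.9% called is near the 38.9% of all genes tested. Rangrf, the homologue of the yeast Ran-binding protein Mog1, had 1.46, 1.72 and 1.6 CPM in the KO-labelled libraries, against 6.24, 6.64 and 5.75 CPM in WT. The groups lay far apart, at a log2 difference of -1.96 (SE 0.15, adjusted p = 7.67e-06, edgeR's quasi-likelihood test), larger than that of any of the 31 genes. Ranbp17, a relative of Xpo7, averaged 10.6 ± 0.361 CPM in KO-labelled and 7.14 ± 0.401 CPM in WT libraries (SD, n = 3 each; log2 0.57, edgeR adjusted p = 0.00150). Nxt2, the paralogue of Nxt1, averaged 30.1 ± 2.22 CPM in KO-labelled and 24.4 ± 3.33 CPM in WT libraries (SD, n = 3 each; log2 0.31, edgeR adjusted p = 0.0433).

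Among 29 export adaptors and partners of the mRNA and ribosome export routes, 27 were measured, and 2 were higher and 2 lower (14.8% called, beside 38.9% of all genes tested). Thoc3 and Thoc6, subunits of the TREX complex that couples transcription to mRNA export, went opposite ways, with log2 differences of -0.54 (edgeR adjusted p = 0.000245) and 0.48 (edgeR adjusted p = 0.00265). Thoc3 averaged 29.9 ± 1.67 CPM in KO-labelled and 43.5 ± 0.300 CPM in WT libraries (SD, n = 3 each), and Thoc6 averaged 20.3 ± 1.98 CPM in KO-labelled and 14.5 ± 0.852 CPM in WT libraries (SD, n = 3 each). Ltv1, which acts in assembly of the small ribosomal subunit, was lower at -0.42, and Ncbp1, the large cap-binding subunit, higher at 0.26 (edgeR adjusted p of 0.00660 and 0.0109).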

How the data were processed

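RNA was measured in 3 libraries per group, and the deposited table holds expected counts per gene. Per the submitters' processing notes, the authors used cutadapt and RSEM with the build GRCm38. Tool versions, the aligner and whether strand was used were not given in the sources used here. RSEM splits reads between genes they match equally, and 17.9% of the deposited values were not whole. The counts were rounded and then filtered by filterByExpr (edgeR 4.0.16 in R 4.3.3), with a minimum count of 10 and a minimum total of 15. After TMM scaling, the groups were compared by a two-sided quasi-likelihood F test on genotype, and p-values were adjusted by the Benjamini-Hochberg method over the 15454 genes tested. CPM uses TMM-scaled library sizes. Log2 differences are KO-labelled minus WT, and 95% intervals extend 2.24 SE to each side. The biological coefficient of variation was 11.5%. The fit was first tested on simulated counts with known changes in genes above 1 CPM, 50 genes for each size. It called 10% of 1.25-fold, 68% of 1.5-fold, 80% of 2-fold and 100% of 4-fold changes. There were 12 false calls among 15168 genes tested. Most 1.25-fold changes were thus missed in the simulation. Far fewer genes were changed there than the 6011 called in these libraries, which makes the adjusted threshold stricter, so these shares do not carry over to the members. A member that was not called may still differ, by sizes within its 95% interval.

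Symbols, positions and exon lengths (the union over transcripts) came from GENCODE M21, which matched 55230 identifiers and missed 241. Near-identical copies were found with BLAST+ 2.17.0, at 95% identity or more over 500 bases or more of the same strand. Summing their counts, and the medians within 5 Mb, were chosen after seeing the data. Promoter windows came from RefSeq. All members are accounted for: called members and Ran cycle genes by library, the others by class, with up to 4 of a class or list named by smallest adjusted p. The members, lists and motifs were chosen with earlier results of these data known. Within each group, counts differed between libraries by more than sampling noise. Alternatives changed the scaling, the filter, the tool, the replicate block and the libraries included. Some genes of the lists are not reported here.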

Additional observations from a re-analysis of the deposited data

How the results depend on the processing

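Beside the main setting of 9 members called (6 higher, 3 lower), 14 settings were tried. Keeping all genes without a filter gave 5 members called, of them 1 higher. Fitting the replicate number as a block gave 3 called, of them 1 higher, and 2213 higher and 2781 lower over all genes. Same-numbered libraries did not deviate together (correlations 0.02, -0.08 and -0.03), and those with different numbers had correlations from -0.095 to 0.152. Low correlations cannot show that same-numbered cultures were handled apart, and the labels do not say whether the numbers pair the libraries. The block ended the calls on Kpna6, Ipo8, Ipo9, Xpo4, Xpo6 and Xpot (edgeR adjusted p 0.0531 to 0.143). Leaving out 1 library at a time gave 3 to 8 called and 1 to 6 higher. DESeq2 size factors, library size alone, a filter of 1 CPM in all libraries of a group, DESeq2's Wald test, limma-voom and summing copies gave 8 to 10 called. Lower calls ran from 2 to 4, and Kpna4, Ipo4 and Ipo13 were called throughout.

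Summed with its copies, Kpna2 had a log2 difference of 0.0118 in place of -0.922. Subtracting the chromosome's median turned the sign of 8 members: Ipo9 (-0.0594), Xpo5 (-0.0753), Ipo11 (0.1553), Tnpo3 (-0.0982), Rcc1 (-0.0512), Ranbp3 (-0.2561), Kpnb1 (0.0249) and Ipo7 (0.0503). The other signs that turned belonged to members with log2 differences between -0.01 and 0.10. Without a filter Ranbp3 had -0.0146 and Ipo5 -0.0266. Ipo7 had 0.0169 with library size alone and 0.0166 with the 1 CPM filter. Leaving out 1 library at a time gave -0.0331 to 0.2018 for Ranbp1, -0.0387 to 0.0892 for Ranbp3, -0.0298 to 0.1148 for Nutf2, -0.0193 to 0.09 for Tnpo1, -0.0481 to 0.048 for Ipo5, -0.0988 to 0.0512 for Ipo7, -0.0057 to 0.1661 for Nxf1 and -0.0095 to 0.1037 for Nxt1. The cause was not tested. With 3 libraries a group, Xpot, Xpo4, Ipo8 and Ipo9 lay close to the threshold, and gene-level counts do not separate Kpna2 from its copies.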
